A study of Bos taurus with 11 samples.

Results

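The complement genes C1R, C1S, SERPING1, C3, CFB, CFI, CD46, CD55 and CD59 were followed in the endometrium, the lining of the uterus, of 6 fertile and 5 subfertile cows (Bos taurus) sampled on day 7 of the estrous cycle. They comprise proteases and components of the cascade together with inhibitors that act in fluid or on the cell surface. Probes were chosen by name: every non-control probe on the array that carries the symbol of one of these 9 genes was kept, which gave 38 of 43653 probes. Of the 38, 30 were well above background on at least 5 of the 11 arrays and were tested, among 31877 tested probes in all. CD59 had 1 probe, CD55 had 2, C1R and C1S had 3 each, CFB, CFI and SERPING1 had 4 each, CD46 had 7 and C3 had 10. Fertile cows were animals that had conceived within 3 rounds of embryo transfer or artificial insemination before the biopsy and conceived again at the first embryo transfer after it. Subfertile cows had failed to conceive in 3 consecutive rounds, although no fault of the genital tract was detected and their cycles appeared normal. All cows were biopsied at the same stage, and no drug or genetic change is named for either group. The age, breed and parity of the cows, and the site of the biopsy within the uterus, are not given in the sources used here. Each cow was 1 array of total RNA labelled with the dye Cy3. A level here is log2 of the processed signal minus the 75th percentile of that array on the same scale, so that 0 marks the 75th percentile, and every difference is subfertile minus fertile in log2 units.

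Complement is a chain of proteases and opsonins that marks surfaces for removal by phagocytes and can end in a pore through the target membrane. In the classical pathway, C1R activates C1S inside the first component, and C1S then cleaves C4 and C2. C3 is the central component on which the classical, lectin and alternative pathways converge, and CFB supplies the protease of the alternative pathway convertase. Host tissue is shielded by inhibitors: SERPING1 (C1 inhibitor) inactivates C1R and C1S, CD46 is a cofactor with which CFI degrades deposited C3b, CD55 (decay-accelerating factor) dissociates convertases, and CD59 blocks assembly of the membrane pore. In the endometrium, complement proteins belong to the innate defence of the mucosa, and surface inhibitors have been studied in connection with tolerance of sperm and embryo.

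The measurement of each gene rests on the 60 bases printed on the array, and several results below differ between probes of the same gene. The first 30 bases of the probes on which the results turn, as given in the array annotation, are printed 5′ to 3′ with no letters capitalised:
CD59 A_73_P039931, called higher: aatgcagttttgagttcattgcaaaagcct
CD46 A_73_100255, called lower: aaagggaaagcagaatgtagcgctacgtac
CD46 A_73_P299151, brightest CD46 probe, not called: ataagtcatgtaaagaaagacgtgtactgt
C3 A_73_P380496, called higher: tgaagcaccttatccaaaccccctccggct
C3 A_73_P102201, brightest C3 probe, not called: tacatcatcgggaaggacacctgggtggag
C1R A_73_P042756, brightest C1R probe, not called: agtggaagactgacctcaggattgcctagg
On bovine assembly Btau_3.1, the build of the array annotation, the CD59 probe lay at chr15:64056107-64056166 on the minus strand. The called C3 probe lay at chr7:16339890-16339949 and the brightest at chr7:16354080-16354139, both on the plus strand. The brightest CD46 probe lay at chr16:73893918-73893977 on the minus strand, the called CD46 probe spanned a spliced interval at chr16:73894094-73900210 on the same strand, and the C1R probe lay at chr5:10365198-10365257 on the plus strand. An annotation of exons or untranslated regions on that build was not used here, so probes are placed by the position in the transcript that the array annotation gives.

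Of the 30 tested probes, 3 differed between the groups at an adjusted p below 0.05 (limma, Benjamini-Hochberg over all 31877 tested probes), 2 higher and 1 lower in subfertile cows. The count of 3 in 30 stands beside 22.2% of all tested probes, 14.8% higher and 7.38% lower. The median difference over the 30 probes was 0.09, with 18 probes above 0 and 12 below, against a median of 0.07 over all tested probes, with 56.4% above 0. In 1 of the 30 probes the values of the groups did not overlap, compared with 13.5% of all tested probes. A random block for slide left 2 complement probes called, beside 11.5% of all tested probes. A random block for the day of scanning left 0 by limma, with 3 at an unadjusted p below 0.05, beside 3.06% of all tested probes. The called probes belonged to CD59, C3 and CD46. For C3 and CD46 the call concerned a single probe, and the brightest probe of the same gene was not called.

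**Figure D1:**
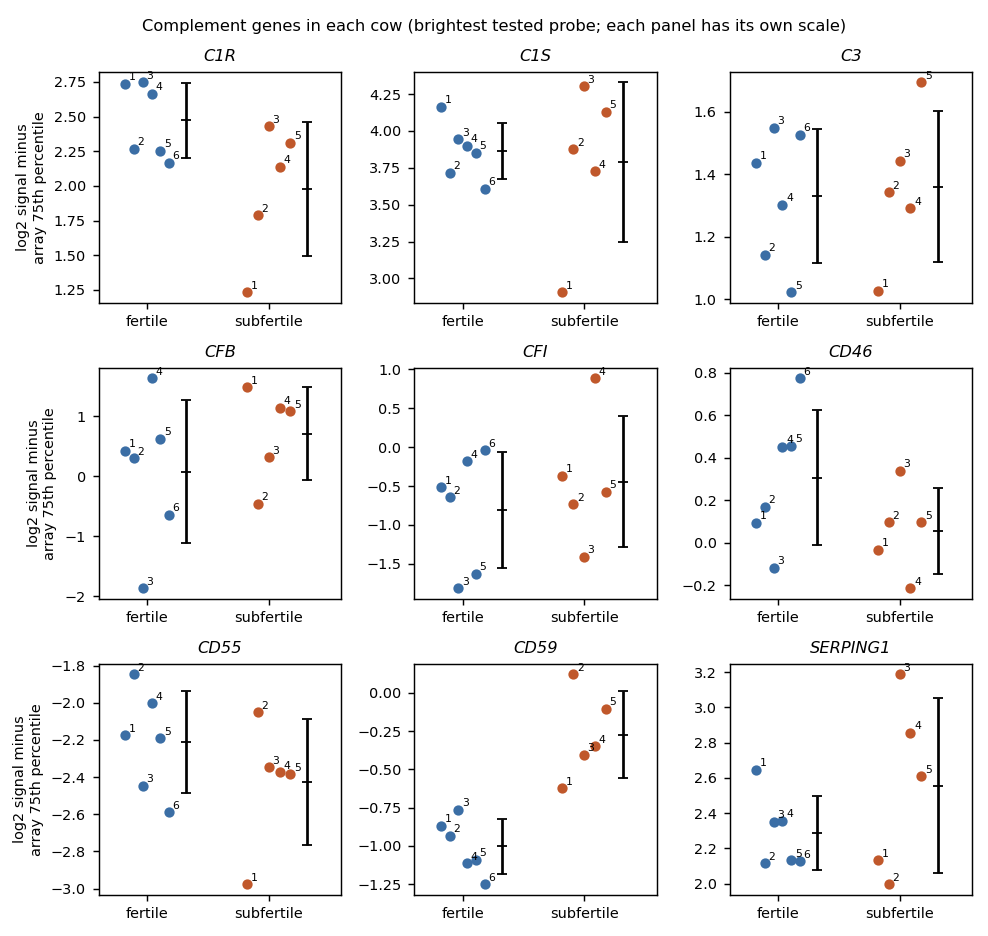
Level of the brightest tested probe of each gene (log2 signal minus the 75th percentile of the array, vertical axis, own scale per panel) in 6 fertile and 5 subfertile cows, with cow numbers beside the points and bars for mean ± SD. Only in the CD59 panel do the groups separate, with every subfertile cow at -0.62 or above and every fertile cow at -0.76 or below.

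The arrays themselves differed with the groups. The median signal of an array was 161 to 452 in fertile cows, against 54.3 to 92.7 in subfertile cows (log2 difference -1.93, exact two-sided permutation test over 462 splits, p = 0.00216). The share of spots well above background was 74.2% ± 1.88 (SD, n = 6) and 68.5% ± 3.53 (SD, n = 5), with p = 0.0130 by the same exact test. The 10 arrays with a recorded slide lay on 6 slides and 4 scan days, none of which held both groups, and all 5 subfertile arrays were scanned on the same day. Slide, day and group therefore cannot be told apart by a within-batch comparison. Called values are therefore also given with the slide or the scan day as a random block. In those fits fertile cow 6, whose slide and day are not recorded, was entered as a slide and a day of its own. Of 11 tested epithelial markers, 6 were called higher and none lower, beside 14.8% and 7.77% of all named genes. Their median difference was 0.54 (CLDN3, a tight-junction claudin, rose by 1.08, and the epithelial transcription factor ELF3 by 0.54). The mean level of the list, centred on each gene's mean, ran from -0.58 to 0.09 in fertile and from 0.04 to 0.44 in subfertile cows. These ranges overlapped only through fertile cow 6, at 0.09, and subfertile cow 3, at 0.04. The count of 6 was 1 with quantile normalization, with median centring, and with either block, while the median difference stayed between 0.35 and 0.61 over these and the other settings, apart from the fits that left out a cow in turn. Of 12 stromal markers, 2 were called higher and 2 lower, beside the same 14.8% and 7.77%, with a median difference of -0.11. The list thus had no common direction. Markers were named by the smallest p, and here both were decreases: FBN1, which encodes fibrillin, fell by 0.98, and FN1, fibronectin, by 0.80. The epithelial minus the stromal mean averaged -0.30 in fertile cows (range -0.77 to 0.15) and 0.35 in subfertile cows (-0.02 to 0.85). No epithelial or stromal marker on the array was without signal. A biopsy holds many cell types, so fewer cells of a type and less RNA per cell cannot be told apart. The part of cell makeup, slide or array brightness in the differences below was not tested.

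CD59, the inhibitor of the membrane attack complex, was the gene with the clearest difference. In fertile cows its level ran from -1.25 to -0.76 with a median of -1.01. In subfertile cows it was -0.62, 0.12, -0.40, -0.35 and -0.11 in cows 1 to 5. All 5 subfertile cows were thus above all 6 fertile cows, and the closest pair, fertile cow 3 and subfertile cow 1, stood at -0.76 and -0.62. The difference was 0.73 ± 0.14 (SE), a 1.66-fold higher signal, with a 95% interval from 0.42 to 1.05 and an adjusted p of 0.00571 (limma). The call was kept when any single cow was left out, with differences from 0.63 to 0.82, and with a random block for slide (0.0244, limma). With scan day as a random block the difference was 0.75 and the adjusted p was 0.0820 (limma), the largest over its 23 alternatives, which went down to 0.000374. Among fertile cows, where slides could be compared with no difference of group, the mean on the second slide minus that on the first was -0.20. The spread of CD59 between cows of 1 group was 0.23 (SD), at the 37.0th percentile of all tested probes, so that this gene varied less between animals than the median probe (0.281). With a single probe, no second measurement of CD59 was available on the array.

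CD46, the membrane cofactor with which factor I degrades C3b, gave different answers from different probes. The probe at base 1060 of its transcript fell from a fertile range of -1.08 to -0.57, with a median of -0.82, to -1.84, -1.48, -0.97, -1.50 and -1.37 in subfertile cows 1 to 5. Only subfertile cow 3 lay within the fertile range. The difference was -0.58 ± 0.15 (SE), with a 95% interval from -0.92 to -0.25 and an adjusted p of 0.0207 (limma). This call was kept with the slide block (adjusted p = 0.0437, limma). It was lost with the scan day block (0.177), with replicate number as a block (0.0809) and without subfertile cow 2 (0.050), all by limma. Over its 23 alternatives the adjusted p ran from 0.00924 to 0.177. The brightest CD46 probe, at base 1236, ran from -0.12 to 0.77 in fertile cows with a median of 0.31, and stood at -0.03, 0.10, 0.34, -0.21 and 0.10 in subfertile cows. Its difference of -0.25 was in the same direction but was not called (95% interval -0.60 to 0.11, adjusted p = 0.293, limma), and was -0.15 without fertile cow 6. At base 1177 the difference was -0.30 (adjusted p = 0.497) and at base 930 it was 0.30 (adjusted p = 0.446), neither of them called by limma. The array annotation counts bases 1060 and 1236 on the same transcript record, but bases 1177 and 930 each on a different record. These bases are therefore not positions along a single transcript. The probe at base 930 was dim, well above background in only 4 fertile and 2 subfertile cows, so its direction is uncertain. With normexp background correction it was 1.27 and was called (adjusted p = 1.5e-05, limma).

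The probes named CD46 did not all share a place on the genome. The called and the brightest probe lay on chromosome 16 as given above (Btau_3.1), and the probe at base 1177 lay between their ends, at chr16:73899556-73899615. The probe at base 930 was placed at chr16:73987769-73992236 and an untested probe at chr16:74004850-74004909. That probe and the pair described next were not well above background on any of the 11 arrays and were not tested. The pair, both placed at chr16:74145621-74145680, differed by the substitutions G24A and T57C, counted from 1 at the 5′ end of the 60-base probe, with the base of A_73_P072491 given first. The stretch from base 10 to base 39 shows the former as a capital letter:
CD46 A_73_P072491: atgtcttttcagtgGgaagaaggaagagaa
CD46 A_73_P110911: atgtcttttcagtgAgaagaaggaagagaa
Across cows, with the group means removed, the called and the brightest CD46 probe correlated at 0.75 over the 11 arrays. The other 5 pairs of tested CD46 probes, each with the dim probe at base 930 or the probe at base 1177, lay between -0.10 and 0.18. The 6 pairs of SERPING1 probes, by contrast, correlated between 0.90 and 0.98. Values for CD46 are given by probe for that reason.

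CD55, which breaks up convertases on the cell surface, was not called by either probe. The brighter probe, at base 1957, ran from -2.59 to -1.85 in fertile cows with a median of -2.18, and was -2.98, -2.05, -2.35, -2.37 and -2.38 in subfertile cows. Subfertile cow 1 was the lowest of all 11 cows, and the other 4 lay within the fertile range. The difference was -0.22 (95% interval -0.60 to 0.17, adjusted p = 0.404, limma), and -0.08 without subfertile cow 1. The other probe, at base 1093, gave 0.37, in the opposite direction (95% interval -0.09 to 0.84, adjusted p = 0.226, limma). With normexp background correction that probe gave 0.85 and was called higher (adjusted p = 0.000187, limma). The probes nevertheless followed the same cows, with r = 0.94 after removal of the group means. Neither CD55 probe was placed on a chromosome in the array annotation.

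C3, the central component, was not called by its brightest probe. At base 4914 of the transcript, fertile cows ran from 1.02 to 1.55 with a median of 1.37, and subfertile cows stood at 1.03, 1.34, 1.44, 1.29 and 1.69. The ranges almost coincided. The difference was 0.03 with a 95% interval from -0.28 to 0.34 (adjusted p = 0.900, limma), so that the interval holds no difference beyond 0.34 in size. The sign of so small a difference changed with the scaling: it was -0.06 with median centring and -0.0059 with quantile normalization. The probe at base 3058 was called higher. It was dim, with a processed signal of 49.9 to 74.5 in subfertile cows, though well above background on every array. Its levels ran from -4.25 to -3.62 in fertile cows with a median of -4.06, against -3.69, -3.40, -3.04, -3.73 and -3.37 in subfertile cows. Subfertile cows 1 and 4 overlapped with fertile cow 1, and the other subfertile cows were above all fertile cows. The difference was 0.56 ± 0.155 (SE), with an adjusted p of 0.0249 (limma), and the call was lost in 7 of 23 alternatives. The adjusted p was 0.0541 with quantile normalization, 0.0807 with the slide block, 0.194 with the scan day block and 0.0860 with replicate number as a block. It was between 0.0531 and 0.0572 without subfertile cow 2, 3 or 5. Over all 23 alternatives it ran from 3.63e-05 to 0.194. The smallest came with normexp background correction, where the difference was 0.99.

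The 10 C3 probes were laid out along the transcript from base 621 to base 4914. The 4 probes from base 621 to base 2284 were well above background on no more than 2 of the 11 arrays each and were not tested. The 6 from base 2439 onward were tested. The first of these, at base 2439, was well above background in 5 fertile and 0 subfertile cows, so its subfertile level is only a bound and neither a fold nor a direction is given. With normexp background correction that probe was nevertheless called (adjusted p = 2.68e-05, limma). The differences of the next 5 were 0.56, 0.21, -0.37, -0.15 and 0.03 in order of position. With normexp the probe at base 3912 was called higher as well, by 0.57 (adjusted p = 0.0253, limma). The probe at base 4513 was lower by 0.37 with an interval that did not reach 0 (-0.72 to -0.025), and was not called after adjustment (adjusted p = 0.113, limma). The untested probe at base 621 was well above background in 1 subfertile cow and no fertile cow, so that no fold is given for it either. Of the 5 C3 probes measured in both groups, 3 were above 0 and 2 below.

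**Figure D2:**
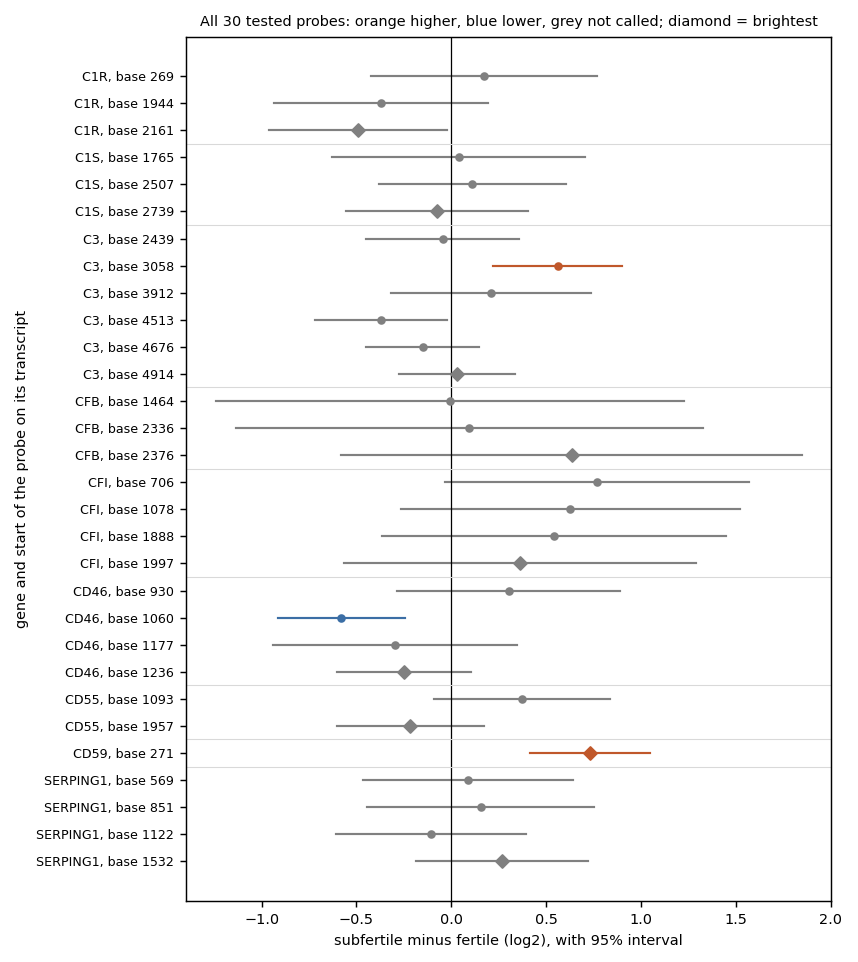
Difference between subfertile and fertile cows (log2, horizontal axis) with its 95% interval for each of the 30 tested probes, labelled by gene and by the start of the probe in its transcript, with a diamond for the brightest probe of a gene. The called probes are at base 3058 of C3 (0.56), base 1060 of CD46 (-0.58) and base 271 of CD59 (0.73), the intervals for CFB are the widest, and all 4 CFI probes lie above 0. At base 2439 of C3 no subfertile array was well above background.

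C1R, the protease that activates C1S, was lower in subfertile cows by its brightest probe without passing the threshold. At base 2161, fertile cows ran from 2.17 to 2.75 with a median of 2.47, and subfertile cows were 1.23, 1.79, 2.43, 2.14 and 2.31. Subfertile cows 1, 2 and 4 were below every fertile cow, and cows 3 and 5 were inside the fertile range. The difference was -0.49 with a 95% interval from -0.96 to -0.024 and an adjusted p of 0.120 (limma). Without subfertile cow 1 it was -0.31. With normexp background correction it was -0.58 and passed the threshold (adjusted p = 0.0291, limma), the smallest over 23 alternatives, which reached 0.433. At base 1944 the difference was -0.37 (adjusted p = 0.326) and the dim probe at base 269 gave 0.17 (adjusted p = 0.684, limma). With normexp that dim probe was called in the opposite direction, higher by 1.03 (adjusted p = 0.000406, limma).

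C1S, the second protease of the first component, was not called. Its brightest probe, at base 2739, ran from 3.61 to 4.17 in fertile cows with a median of 3.88, and was 2.91, 3.87, 4.30, 3.73 and 4.13 in subfertile cows. Subfertile cow 1 was the lowest and subfertile cow 3 the highest of all 11. The difference was -0.08 (95% interval -0.56 to 0.40, adjusted p = 0.830, limma), and without subfertile cow 1 it was 0.14. The other C1S probes differed by 0.04 and 0.11, and neither was called.

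SERPING1, the inhibitor of both proteases, was also not called. The probe at base 1532 ran from 2.12 to 2.65 in fertile cows with a median of 2.24, and stood at 2.13, 2.0, 3.19, 2.86 and 2.61 in subfertile cows. Subfertile cows 3 and 4 exceeded every fertile cow, while subfertile cow 2 was the lowest of all, and the SD was 0.50 among subfertile and 0.21 among fertile cows. The difference was 0.27 (95% interval -0.18 to 0.72, adjusted p = 0.378, limma), and 0.11 without subfertile cow 3. The remaining SERPING1 probes gave differences of 0.09, 0.15 and -0.11. With normexp, those at bases 569 and 851 were called higher, by 0.81 and 0.57 (adjusted p = 0.000552 and 0.0148, limma).

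C1R, C1S and SERPING1 moved together from cow to cow. With the group means removed, r over the 11 arrays was 0.90 for C1R with C1S, 0.81 for C1R with SERPING1 and 0.65 for C1S with SERPING1. These were the highest values among the 36 pairs of genes apart from C1R with C3, at 0.67. They are descriptions over arrays that share a scaling and, in part, a slide. Subfertile cow 1 lay 0.75 below its group mean in C1R, 0.88 below in C1S and 0.42 below in SERPING1, and subfertile cow 3 lay above it by 0.45, 0.51 and 0.63. Subfertile cow 1 also had the lowest mean of the stromal markers, at -0.41, where the other 10 cows lay between -0.06 and 0.19. The genes most like C1R in the same measure were IGFBP3 (r = 0.948), an insulin-like growth factor binding protein, and GYPC (0.939), and those most like C1S were OLFML3 (0.954) and NDN (0.946), out of 10752 named genes compared. For SERPING1 they were PRR15 (0.948) and GTDC1 (0.945).

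**Figure D3:**
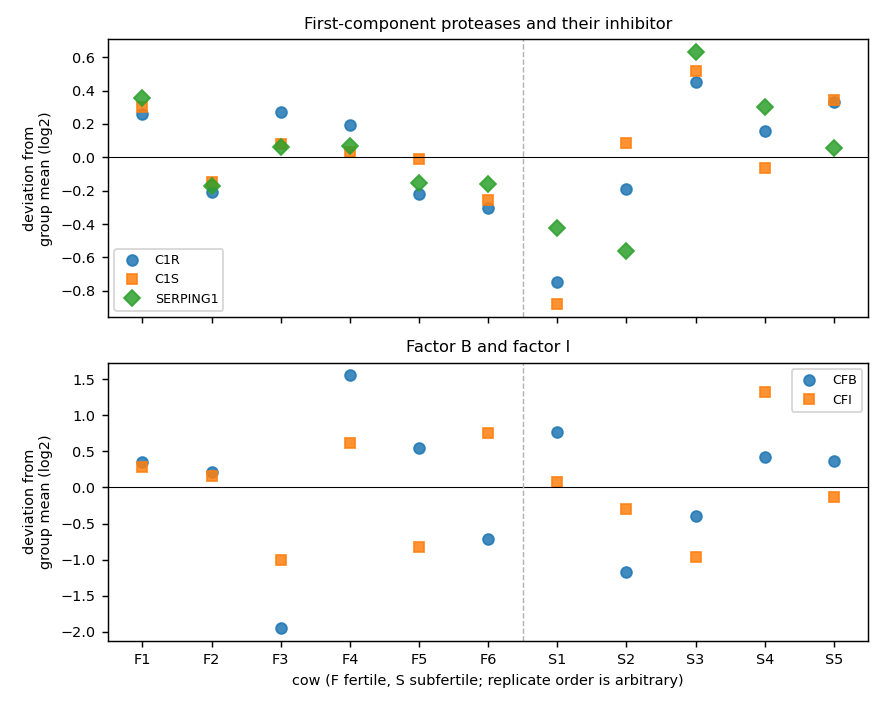
Deviation of each cow from the mean of its group (log2, vertical axis) for C1R, C1S and SERPING1 (upper panel) and for CFB and CFI (lower panel), with fertile cows F1 to F6 and subfertile cows S1 to S5 along the horizontal axis in an order that has no meaning. In the upper panel S1 is low and S3 high in all 3 genes, while S2 spreads from -0.56 to 0.09, and in the lower panel F3 is low and F4 high for both genes.

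CFB, the protease component of the alternative pathway convertase, varied between cows far more than between groups. Its brightest probe, at base 2376, ran from -1.87 to 1.63 in fertile cows with a median of 0.36, and was 1.48, -0.46, 0.32, 1.14 and 1.09 in subfertile cows. Fertile cows 3 and 4 were the lowest and the highest of all 11 cows, and every subfertile value lay between them. The difference was 0.63 with a 95% interval from -0.58 to 1.85 (adjusted p = 0.439, limma), an interval that covers both no change and a large increase. It was 0.24 without fertile cow 3 and 0.94 without fertile cow 4. The SD between cows of a group was 1.04, at the 97.8th percentile of all tested probes. The dim probe at base 1464 gave -0.0075 (adjusted p = 0.995, limma). With normexp it was 1.04 and was called higher (adjusted p = 8.31e-05, limma). The probe at base 1035 was well above background in 1 fertile and 1 subfertile cow and was not tested.

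An overlapping pair of CFB probes differed in their group difference although they followed the cows almost identically. The probe at base 2336 and the probe at base 2376 share 20 bases, capitalised here in the last 30 bases of the former and the first 30 bases of the latter:
CFB A_73_P049501: ctccaaaatgAGGATCTGGGTTTTCTATAA
CFB A_73_118840: AGGATCTGGGTTTTCTATAAggggtttcct
Within groups their r was 0.9991. Their differences were 0.10 (adjusted p = 0.921) and 0.63 (adjusted p = 0.439), neither called by limma. Taking the log2 ratio of the pair on each array relative to its fertile mean, fertile arrays lay between -0.07 and 0.09 and subfertile arrays between 0.50 and 0.60. The ratio of the pair thus shifted by 0.54 with the group, with no overlap. The same comparison of the brightest tested pair of probes gave groups that did not overlap for SERPING1, at 0.30 to 0.48 in subfertile cows, and for CD55, at -0.66 to -0.49. It gave overlapping groups for C1R, C1S, C3, CFI and CD46. Over all named genes with at least a pair of tested probes, 1334 of 6393 (20.9%) gave groups that did not overlap, beside 3 of 8 complement genes. The shift of 0.54 for CFB is close in size to the differences called for C3 and CD46, and its source was not tested.

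CFI, the protease that degrades C3b and C4b, was not called by any probe. The brightest, at base 1997, ran from -1.81 to -0.04 in fertile cows with a median of -0.58, and was -0.37, -0.74, -1.41, 0.88 and -0.57 in subfertile cows. Fertile cows 3 and 5 and subfertile cow 3 were low, and subfertile cow 4 was the highest of all. The difference was 0.36 (95% interval -0.57 to 1.29, adjusted p = 0.570, limma). Without subfertile cow 4 it was 0.03, and without any other single cow 0.16 to 0.60. At bases 706, 1078 and 1888 the differences were 0.77, 0.63 and 0.54, with adjusted p-values of 0.151, 0.291 and 0.373 (limma). Some of these were called in alternatives. With normexp, bases 706 and 1078 were higher by 1.03 and 1.08 (adjusted p = 0.00260 and 0.00152, limma). With replicate number as a block, bases 1078 and 1888 were called higher (adjusted p = 0.0346 and 0.0450, limma). The 4 probes correlated within groups between 0.87 and 0.96, so that they repeat the same cows and are not separate evidence. The SD between cows of a group was 0.79, at the 94.7th percentile. 

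**Figure D4:**
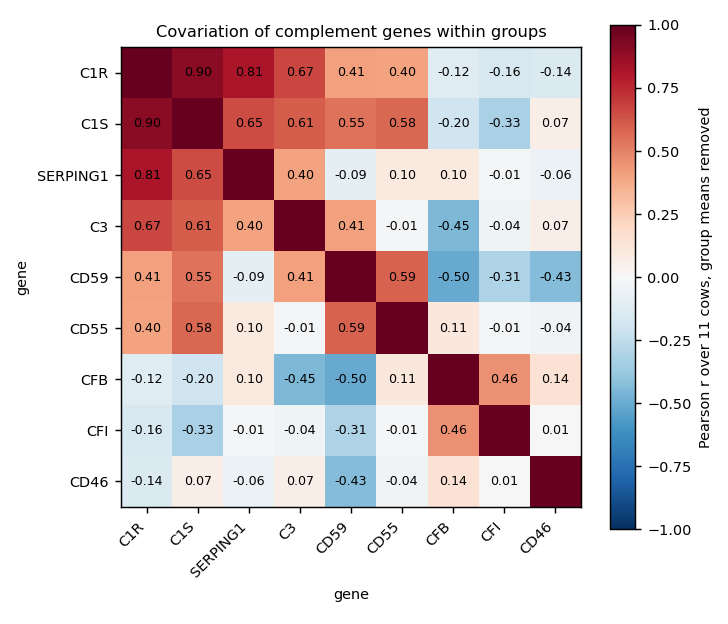
Pearson r between the brightest probes of the 9 genes over 11 cows after removal of the group means (colour and printed value, -1 to 1), with genes on both axes. C1R, C1S, SERPING1 and C3 lie between 0.40 and 0.90 with one another. CD55 with CD59 (0.59), and C1S with CD55 (0.58) and CD59 (0.55), fall in the same range. CFB and CFI reach 0.46, and CFB with CD59 is the lowest pair at -0.50.

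CFB and CFI correlated at 0.46 within groups, and CFB and CD59 at -0.50, the lowest of the 36 pairs. CD59 and CD55, which share a lipid anchor in the membrane, correlated at 0.59, while CD46 stayed between -0.43 and 0.14 with every other gene. The genes most like CFB were SYNGR1 (r = 0.927) and MARK1 (0.912), and those most like CFI were PALMD (0.956) and TLE6 (0.896). For C3 they were EXOSC9 (0.953) and SP3 (0.929), and for CD46 ATXN7L1 (0.958) and PELO (0.916). For CD55 they were QRFPR (0.958) and PTX3 (0.951), a pattern recognition molecule that binds the first component, and for CD59 PRPF31 (0.938) and NAV3 (0.906). With 11 arrays and 10752 genes compared, values this high come from the top of a long list, and no p is attached to them.

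Other genes of the cascade were read from a list of 49, of which 40 had a probe by name and 28 had a tested probe. Taking the brightest probe of each, 3 genes were called higher and 3 lower in subfertile cows, beside 22.6% of 10869 named genes called in either direction (14.8% higher and 7.77% lower), and the median difference of the 28 was -0.03. The split depended on the scaling: 7 were called higher and 0 lower with normexp background correction, 0 and 3 with quantile normalization, and 1 and 3 with median centring.

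CLU (clusterin), a fluid-phase inhibitor of the membrane attack complex, rose by 0.60 ± 0.135 (SE) at its brightest probe (adjusted p = 0.010, limma), and 3 of its 4 probes were called higher. Fertile cows ran from 5.89 to 6.67 and subfertile cows from 6.61 to 6.92, overlapping through fertile cow 6. With quantile normalization the brightest probe gave -0.09, and the others gave 0.04, 0.39 and 0.52, of which the last was called (adjusted p = 0.0147, limma). The call of the brightest probe was kept with a block for slide (adjusted p = 0.0454) and without any single cow, and was lost with a block for scan day (0.117, limma). COLEC11, a collectin that starts the lectin pathway, rose by 1.09 ± 0.36 (adjusted p = 0.048, limma), in 4 of 5 subfertile cows, while subfertile cow 4 at -2.46 lay in the fertile range. It was kept in 2 of 11 fits that left out a cow, and its adjusted p was 0.144 with a block for slide and 0.295 with one for scan day (limma). MBL2, another lectin pathway collectin, was called at 1 probe (0.37, adjusted p = 0.036, limma), but its other 2 probes had no signal well above background on the 11 arrays. The call was lost with quantile normalization (0.18, adjusted p = 0.343) and with a block for slide (0.0809) or scan day (0.192), and was kept in 4 of 11 fits that left out a cow (limma).

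By the brightest probe of each gene, the called decreases were in receptors and a scavenger collectin. Less bright probes could differ from this. For ITGB2, another gene of the list, 1 probe fell by 0.88 (adjusted p = 0.0181) and another rose by 0.87 (0.0202) with the slide block (limma). Each was called in 11 of 11 fits that left out a cow. The remaining ITGB2 probes, at -0.55 and -0.07, were not called with that block. C3AR1, the receptor for the C3a fragment, fell by 0.97 ± 0.29 (adjusted p = 0.032, limma), from a fertile range of -3.54 to -2.40 to -4.25, -3.20, -3.51, -2.98 and -4.37 in subfertile cows. With normexp background correction its difference was -0.10 and was not called. VSIG4, a macrophage receptor for C3b, fell by 1.0 ± 0.32 (adjusted p = 0.046, limma). With normexp it was -0.51 (adjusted p = 0.0971, limma), its second probe, -0.96 and uncalled, turned to 0.35, and the call was kept in 2 of 11 fits that left out a cow. COLEC12, a scavenger receptor of the collectin family, fell by 0.51 ± 0.16 (adjusted p = 0.043, limma). Of 9 macrophage markers, 1 was called higher (LYZ, lysozyme, 0.38) and none lower, beside 14.8% and 7.77% of all named genes. The median difference of the list was -0.22, opposite in direction to LYZ, and was 0.02 with normexp. Markers called lower numbered 1 with median centring, 2 without fertile cow 6 or without subfertile cow 4, and 3 with replicate number as a block. The mean of the list lay between -0.70 and 0.48 in fertile and between -0.39 and 0.33 in subfertile cows. Fertile cow 6 had the lowest mean of that list and also the lowest fertile values of C3AR1 and VSIG4. With a block for slide the adjusted p was 0.0791 for C3AR1, 0.169 for VSIG4 and 0.153 for COLEC12, and with one for scan day it was 0.251, 0.287 and 0.289 (limma). C3AR1 and COLEC12 each kept their call in 4 of 11 fits that left out a cow.

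The recognition and effector components around the followed genes were not called by their brightest probes. The subunits of C1q, which binds antibody and recruits C1R and C1S, differed by -0.20 (C1QA, 95% interval -1.04 to 0.64), -0.37 (C1QB, -1.15 to 0.41) and 0.33 (C1QC, -0.55 to 1.22). The other C1QB probes differed by -0.38 and 0.18, and neither was called. C2 and C4A, the substrates of C1S, differed by -0.02 (-0.48 to 0.44) and 0.07 (-0.37 to 0.51). CFD, the protease that cleaves CFB, differed by 0.16 (-0.24 to 0.57), and CFP (properdin), which stabilises the convertase, by -0.27 (-0.72 to 0.17). With normexp background correction C2 was called higher, by 0.43 (adjusted p = 0.0150, limma). So were less bright probes of CFP, by 1.14 (3.66e-05), and of C4A, by 1.23 (9.66e-05) and 0.85 (0.00691, limma). C5, the start of the terminal pathway, differed by 0.62 with an interval from -1.74 to 2.98, too wide to read a direction from. None of the 3 probes of C5AR1, a receptor for the C5a fragment, rose well above background on an array.

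**Figure D5:**
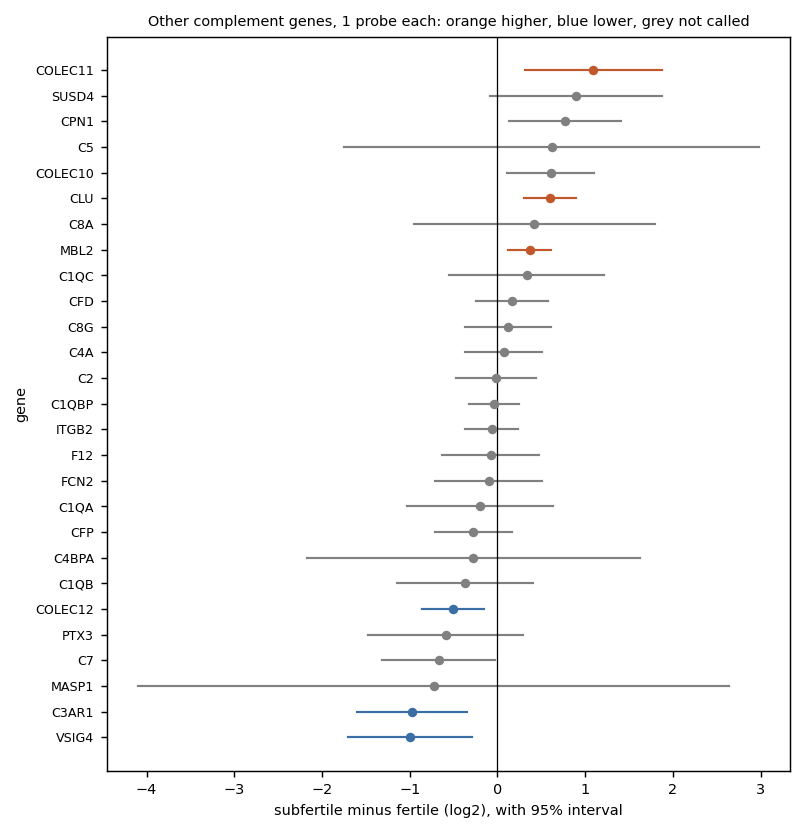
Difference between subfertile and fertile cows (log2, horizontal axis) with its 95% interval for 27 other complement genes, 1 probe per gene. COLEC11, CLU and MBL2 are called higher and COLEC12, C3AR1 and VSIG4 lower, and the intervals of C5, C8A, C4BPA and MASP1 are the widest.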

How the data were processed

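Arrays of 11 cows were analysed, 1 per cow. The submitters' processing notes name Agilent Feature Extraction 10.5.1.1, and the deposited scanner files hold intensity on a linear scale. A further table from the authors, in log2 units, matched differences of log2 intensity between arrays in the scanner files within 0.01 for nearly all probes of every array except fertile cow 1 (23.6%), and was used as an alternative. Names were taken from 10 files, since those of fertile cow 6 were out of register. Here log2 of processed signal minus the 75th percentile of each array was computed, without control and outlier spots, averaging spots of a probe. No member spot was flagged. Probes well above background on at least 5 of 11 arrays (31877) were tested between the groups in limma 3.58.1 (R 4.3.3) by lmFit then eBayes with group as the only term, and p-values were adjusted over all of them by Benjamini-Hochberg, and the script was tested on simulated data. A threshold of 0.05 was used. Arrays carry no read depth, and their number limits the precision. Cows are separate animals.

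A gene is summarised by its brightest tested probe. All probes of the 9 genes are reported, and of the other complement genes up to 4 per direction with the smallest p plus a set of named components, of which 1 is not reported here. Likeness is the Pearson r after removal of group means, with 2 genes per member. The members, lists and tests were chosen with earlier results of these data known. Accessions of 30 of 38 probes matched RefSeq names of ARS-UCD2.0, which were used for names only. Replicate numbers of the labels did not pair the cows: 2 of 5 correlations of same-numbered cows were above 0.1 (-0.21, 0.17, 0.22, -0.04 and -0.17). Alternatives were normexp, quantile normalization, median centring, the deposited table, other filters, slide, scan day or replicate number as a block, trended robust variance, flagged spots kept and leaving out each cow.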

Additional observations from a re-analysis of the deposited data

Results flagged for a closer look

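Of 60 groups of values of the tested complement probes, 2 held a cow whose gap to its nearest neighbour was large against the range of its group, and chance flags about 1 in 20 groups. For C1S at base 2507, subfertile cow 1 stood at 2.25 while the next subfertile cow was at 3.34. The same cow was the lowest subfertile cow for C1R, C3, CD55 and CD59 by their brightest probes, and had the lowest mean of the stromal markers. For CFB at base 1464, fertile cow 3 stood at -7.88 and the next fertile cow at -5.51. That probe was well above background in 5 of 6 fertile and 2 of 5 subfertile cows, and fertile cow 3 was also the lowest of all cows at the brightest CFB probe, at -1.87.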

How the results depend on the processing

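The count of called complement probes was 3 of 30 and stayed between 2 and 3 under most alternatives. It was 14 (12 higher and 2 lower) with normexp, which gave 17126 calls among all tested probes and moved their median difference from 0.07 to 0.33, and 7 of 38 with no filter on dim probes (12179 among all). It was 0 with scan day as a random block by limma, where 3 complement probes had an unadjusted p below 0.05 and 977 of all probes were called. Leaving out each cow gave 1 to 3 complement calls, 1 to 6 for the other complement genes, and 4527 to 7298 for all probes, against 7067. The lowest complement count, and the lowest count over all probes, came without subfertile cow 2. The other complement genes gave 6 calls (3 higher and 3 lower), 7 with normexp, 4 with median centring, 3 with quantile normalization, 1 with slide as a random block and 0 with scan day, where 2 had an unadjusted p below 0.05. They gave 1 without fertile cow 1 or subfertile cow 1, and 2 without fertile cow 3, 4 or 5 or subfertile cow 2 or 5. Slide as a block gave 3672 calls over all probes. The split of all calls was 4716 higher and 2351 lower, and became 3253 and 3135 with quantile normalization and 3203 and 3396 with median centring. Among the brightest and the called probes of the followed genes, sign changes concerned uncalled probes. The brightest C3 probe was -0.057 with normexp, -0.0059 with quantile normalization, -0.062 with median centring and -0.0084 with the slide block. Without single cows it ran from -0.054 to 0.11. The brightest CD55 probe was 0.074 with normexp, and the brightest C1S probe ran from -0.21 to 0.14 without single cows, with 0.14 without subfertile cow 1. Among the other complement genes, the brightest CLU probe, called higher, turned to -0.09 with quantile normalization. The second VSIG4 probe turned to 0.35 with normexp. With the replicate number as a block, 3 complement probes were called (CD59 and 2 of CFI), 4 of the other genes and 4762 of all probes. CD59 passed the threshold in 22 of 23 alternatives, the CD46 probe in 20 and the C3 probe in 16. The cause of these changes was not tested. Probes without signal above background carry bounds only.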
